A study of Mus musculus with 6 samples.

Results

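The R-spondins, their Lgr receptors and the ubiquitin ligases Znrf3 and Rnf43 form the switch that sets how many Wnt receptors stand on a cell. Here 8 genes of this switch were followed in sorted mouse osteocytes: the ligands Rspo1, Rspo2 and Rspo3, the receptors Lgr4, Lgr5 and Lgr6, and the ligases Znrf3 and Rnf43. Members were taken by name, as every probe set (a group of array probes that reads 1 transcript) annotated to exactly 1 of these genes. The rule uses no measured value, although the genes were picked for study with earlier results of these data known. This gave 14 of the 34945 probe sets with a single gene: 5 for ligands, 6 for receptors and 3 for ligases.

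The arrays compare 3 samples labelled as an osteocyte-specific knockout of estrogen receptor alpha (ERaKO) with 3 samples labelled as wild-type littermates (control). Both groups are female C57/BL6 mice of 10 to 12 days whose osteocytes carry a green fluorescent protein under the Dmp1 promoter, which is active in osteocytes and late osteoblasts. Cells of calvarial digestion fractions 4 to 6 were sorted by that fluorescence, and the gate held 10% to 15% of the cells of GFP-positive mice but also 0.8% to 1.0% of those of GFP-negative mice. The extraction protocol calls the controls floxed rather than wild type. Not given in the sources used here are the driver of the Esr1 deletion and whether Cre was present in controls. Loss of the receptor and presence of Cre therefore cannot be told apart. The protocol also speaks of pooled tissue while the design denies pooling. If arrays share tissue, the p-values measure only the spread between these samples.

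R-spondins are secreted proteins that amplify Wnt signals without being Wnt proteins themselves. Znrf3 and Rnf43 sit in the cell membrane and tag Frizzled receptors and the co-receptor Lrp6 with ubiquitin, which sends them to the lysosome. An R-spondin binds an Lgr receptor and a ligase at the same time, the ligase is removed from the surface, and Frizzled and Lrp6 remain. Znrf3, Rnf43 and Lgr5 are themselves transcribed in response to Wnt and β-catenin, so the ligases form a negative feedback. In the mouse skeleton Lgr4 is needed for normal bone formation, and it has also been described as a second receptor of the osteoclast cytokine RANKL.

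Array medians of the deposited signal ran from 20.2 to 28.6 in ERaKO and from 18.7 to 22.7 in control arrays, and 38.6% to 46.9% of signals on an array lay under 16. Control replicate 2 stood apart: the signals of 12 skeletal muscle markers summed to 203.4 there, against 39554.7 and 34128.2 in the other controls and 4545.7 to 22351.3 in ERaKO arrays. Control replicate 1 stood apart in macrophage and osteoclast markers, with a sum of 6393.7 against 11850.4 to 14437.2 on the other arrays. Osteocyte markers were present in both groups, with 11 of 12 above the level filter. Fgf23 lay below it. Of the 3 probe sets of Esr1, the targeted gene, only the dimmest separated the groups, with signals of 1.0, 1.0 and 2.5 in ERaKO and 20.2, 11.6 and 13.3 in control arrays. The brightest had 81.5, 76.1 and 123.8 in ERaKO and 115.4, 94.1 and 83.3 in control arrays. These probe sets do not check the labels, because the part of Esr1 that each one reads is not known here.

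Rspo3 was the member that differed most between the genotypes, and it was higher in ERaKO osteocytes on both of its probe sets. Rspo2, Lgr5, Lgr6 and Znrf3 had small positive differences and Lgr4 a small negative one, each with an interval that includes 0. Rspo1 and Rnf43 were too dim to be tested. The test was limma on quantile-normalised log2(signal + 16), a scale that understates changes of dim genes, with 1 probe set a gene, the brightest. Genes whose mean log2 level fell among the lowest 40% (below 5.37) were not tested, which kept 6 of the 8 members among 10916 genes. No member passed an adjusted p of 0.05 with all 6 arrays, and neither did any other gene (0% of tested genes called). At an unadjusted p under 0.05 stood 1 of the 6 members, Rspo3, beside 10.5% of all tested genes, or 5.85% counting only higher ones. In 2 of the 6, Rspo2 and Rspo3, all ERaKO values lay above all control values, which held for 9.23% of all tested genes. None of the 6 had all ERaKO values below all control values, which held for 7.76%, so that 17% of tested genes separated in either direction. Differences were above 0 in 5 of the 6 members and in 48.3% of all tested genes.

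**Figure D1:**
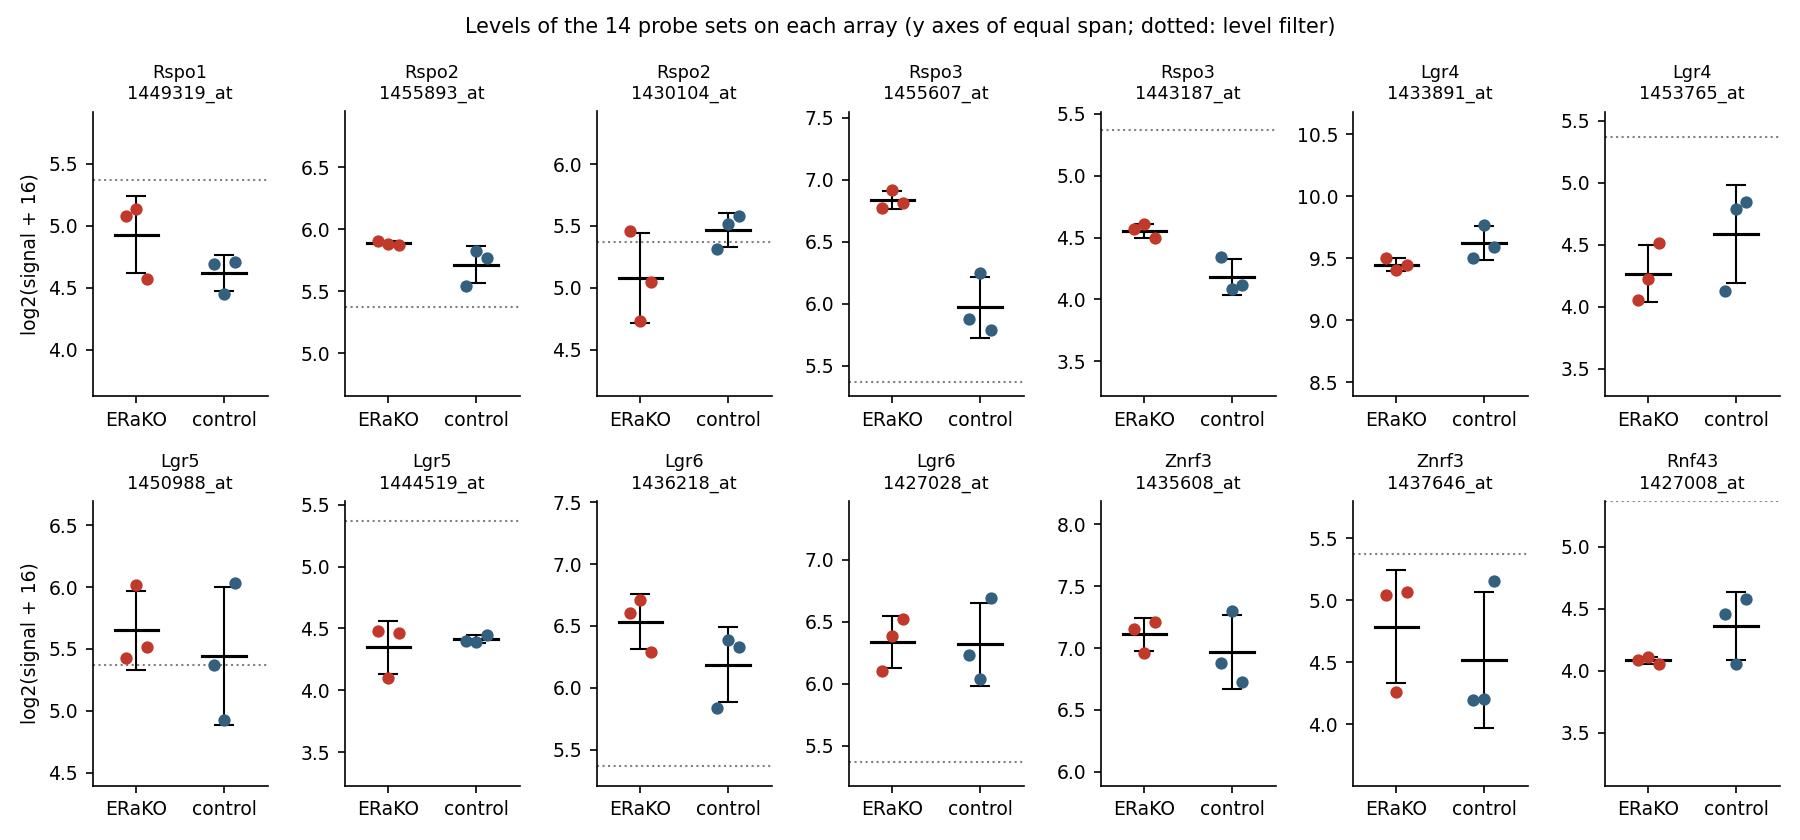
Log2(signal + 16) after quantile normalisation (y axis) of each of the 14 probe sets in ERaKO (left, red) and control (right, blue) arrays, with 1 point an array and bars for the mean ± SD of 3 arrays. Both probe sets of Rspo3 and the brighter one of Rspo2 show no overlap between the groups, and 7 of the 14 have a mean under the level filter (dotted line at 5.37).

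Among the ligands, Rspo3 was read by probe set 1455607_at with deposited signals of 92.0, 98.7 and 123.2 in ERaKO arrays, against 45.0, 54.8 and 33.8 in control arrays. Every ERaKO signal was above every control signal. In bulk samples such as these, more cells of a type and more RNA per cell cannot be told apart. On the log2 scale the levels were 6.77, 6.91 and 6.81 in ERaKO replicates 1, 2 and 3 (6.83 ± 0.07, SD, n = 3) and 5.87, 6.25 and 5.79 in control replicates 1, 2 and 3 (5.97 ± 0.25, SD, n = 3). The ERaKO arrays lay close together, and control replicate 2 was the highest control. The difference was 0.86 ± 0.15 (SE; 95% interval 0.51 to 1.22), a 1.82-fold higher level, with a limma adjusted p of 0.183. By its unadjusted p Rspo3 ranked 32 among the 10916 tested genes. A 2-sided exact permutation test of the 6 values gave p = 0.1, the smallest that 3 arrays against 3 allow.

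The call of Rspo3 depended on 1 array. Without control replicate 2 the difference was 1.00 and the limma adjusted p 0.0137, and Rspo3 was then among the 0.788% of tested genes called as higher (86 genes). Leaving out any other array gave differences between 0.77 and 0.89 and adjusted p-values between 0.183 and 0.669. With the scaling as deposited the difference was 1.00 (adjusted p = 0.0512), while the median of all tested genes moved to 0.14 and 0.275% of them were called, each as higher.

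The second probe set of Rspo3, 1443187_at, was dim, with signals of 7.4, 7.8 and 8.4 in ERaKO arrays, against 4.6, 0.9 and 1.1 in control arrays. The groups did not overlap there either, as in 7.29% of all single-gene probe sets on this side. Its log2 difference was 0.38 ± 0.11 (SE, limma over all single-gene probe sets without a level filter, adjusted p = 0.428). The values are so low that the added 16 sets most of the scale. With 1 added in place of 16 the difference was 1.56.

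**Figure D2:**
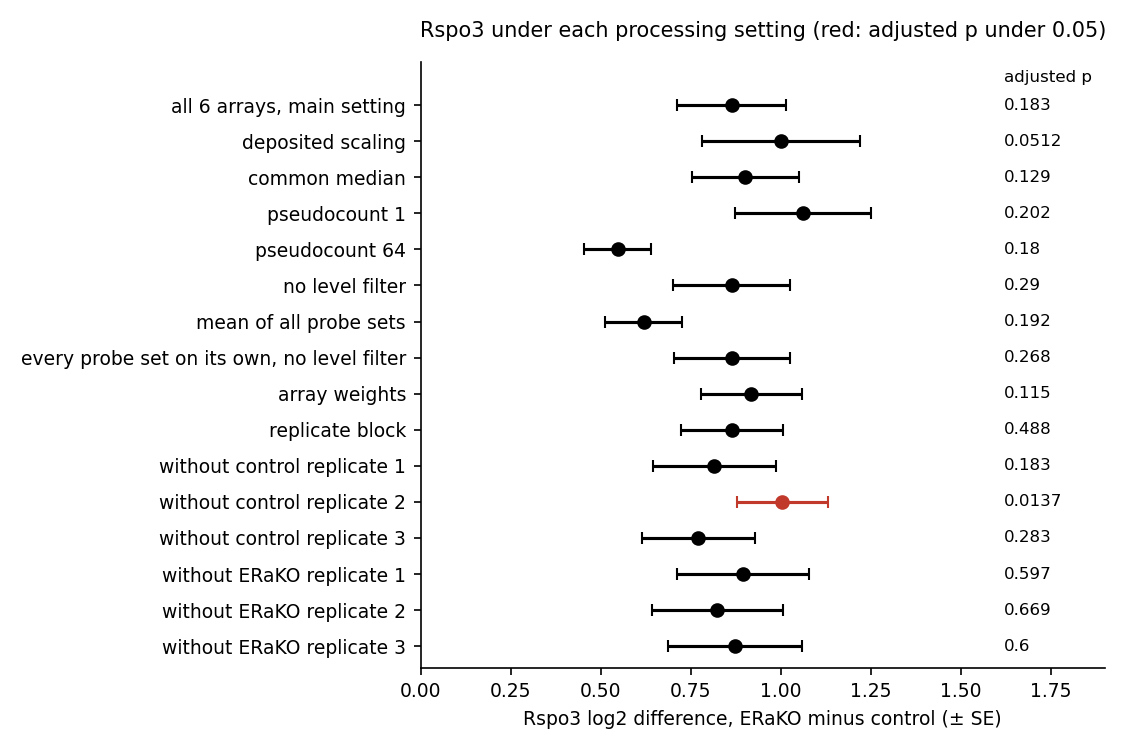
Log2 difference of Rspo3, ERaKO minus control, ± SE (x axis) under each processing setting, with the limma adjusted p at the right. All differences lie above 0, from 0.55 with a pseudocount of 64 to 1.06 with a pseudocount of 1, and only the setting without control replicate 2 passes 0.05.

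Rspo2, the ligand known from limb and lung development in the mouse, had 2 probe sets that pointed in opposite directions. The brighter, 1455893_at, had signals of 43.5, 39.9 and 54.9 in ERaKO arrays, against 31.9, 37.4 and 33.1 in control arrays. These groups did not overlap, but the difference was small, 0.18 ± 0.13 (SE; 95% interval -0.14 to 0.49, limma adjusted p = 0.680), and it was 0.092 without control replicate 1. The dimmer, 1430104_at, had signals of 27.5, 9.9 and 22.2 in ERaKO arrays, against 24.6, 27.4 and 27.4 in control arrays, with a difference of -0.39 ± 0.22 (SE). That difference ran from -0.58 without ERaKO replicate 1 to -0.21 without ERaKO replicate 2. Those groups overlapped through ERaKO replicate 1. Averaging both probe sets put Rspo2 at -0.11, so the direction for this gene depends on the probe set.

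Rspo1, a ligand best known for ovary determination, had signals of 17.2, 17.7 and 9.9 in ERaKO arrays, against 10.2, 5.4 and 8.7 in control arrays. ERaKO replicates 1 and 2 were the highest and ERaKO replicate 3 lay among the controls. The difference was 0.31 ± 0.19 (SE; 95% interval -0.13 to 0.74) for a gene below the level filter, and 0.49 without ERaKO replicate 3 or 0.21 without ERaKO replicate 2. Rspo4, the remaining ligand of the family and no member of the set, was at 1.5, 0.8 and 1.7 in ERaKO arrays, against 1.3, 1.8 and 0.9 in control arrays. Of the 4 R-spondins only Rspo2 and Rspo3 had a probe set above the level filter.

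**Figure D3:**
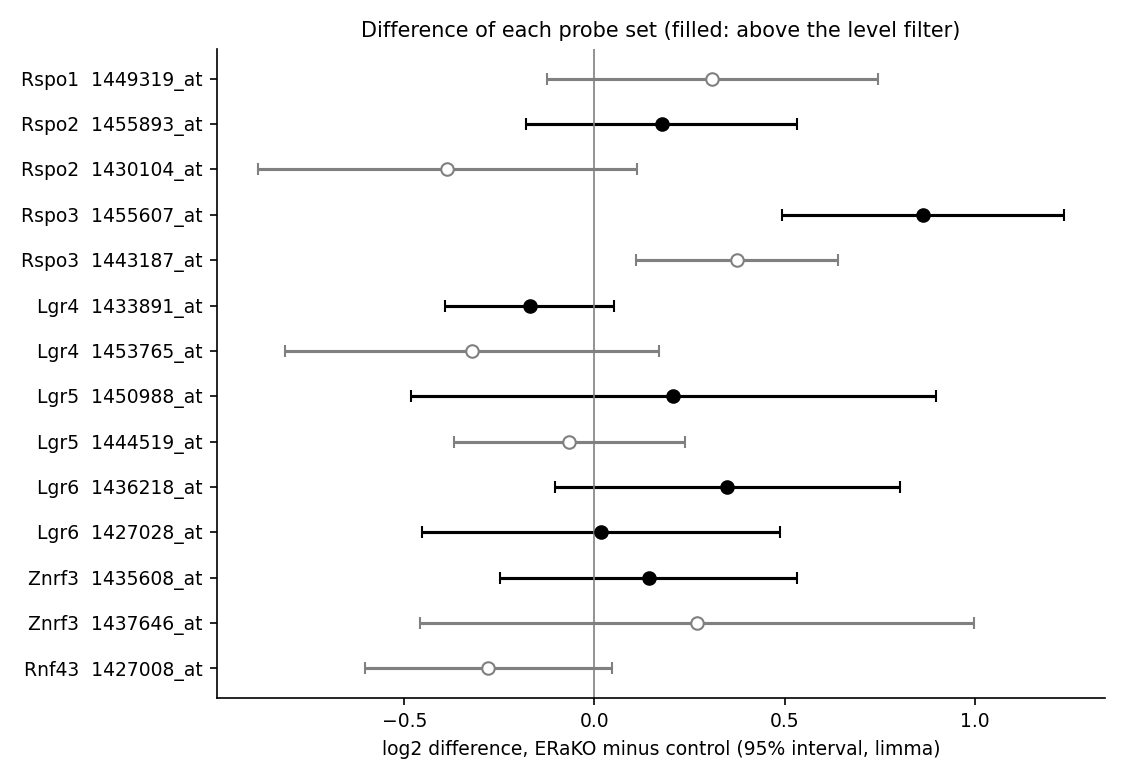
Log2 difference, ERaKO minus control, of each of the 14 probe sets (x axis) with its 95% interval, from limma over all single-gene probe sets. Filled points have a mean above the level filter. The intervals of both Rspo3 probe sets lie above 0, and those of the other 12 include 0.

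Of the receptors, Lgr4 was measured far above the filter on every array by its brighter probe set. Probe set 1433891_at gave signals of 688.3, 633.1 and 857.2 in ERaKO arrays, against 735.1, 801.5 and 651.5 in control arrays. Its log2 levels were 9.50, 9.40 and 9.44 in ERaKO and 9.50, 9.77 and 9.59 in control arrays, so the groups touched at replicate 1 of each. The difference was -0.17 ± 0.10 (SE; 95% interval -0.40 to 0.06, limma adjusted p = 0.575). With the scaling as deposited it was -0.01, and without control replicate 2 it was -0.10. The second probe set of Lgr4, 1453765_at, had signals between 0.6 and 8.8 in ERaKO and between 1.6 and 11.1 in control arrays and a difference of -0.32 ± 0.21 (SE), which ran from -0.55 without control replicate 1 to -0.19 without control replicate 3.

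The bases before the start of Lgr4 are shown because it is the receptor with the narrowest interval and the member in the promoter table with matches to a motif searched. The sequence is from RefSeq (GRCm38.p6), chr2:109917397-109917646, plus strand, the 250 bases before the annotated start, and capitals mark matches to CCAAT, a promoter element bound by the factor NF-Y.
Lgr4: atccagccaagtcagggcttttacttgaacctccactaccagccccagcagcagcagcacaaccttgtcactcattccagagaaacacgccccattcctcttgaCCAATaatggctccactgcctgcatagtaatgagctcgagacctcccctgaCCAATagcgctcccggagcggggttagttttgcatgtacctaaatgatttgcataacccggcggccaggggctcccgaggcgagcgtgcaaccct
Promoters of 4 of the 8 members were in the table (Rspo1, Lgr4, Lgr6 and Rnf43, the last with 2 starts). On both strands, CCAAT was found 2 times before Lgr4 and in none of the other members' windows, and 33.8% of all 32851 windows of this length hold it. The consensus estrogen response element, GGTCA and its reverse complement with any 3 bases between them, was in none of the members' windows and in 0.0639% of all windows. The TCF/LEF motif, searched as CTTTG followed by 2 bases that are each A or T, was in none of the members' windows and in 14.8% of all. These letters in this window describe the sequence and do not locate a binding site or its absence.

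Lgr5, the receptor that marks Wnt-dependent stem cells of the intestine, had a difference whose interval was the widest among the tested members. Probe set 1450988_at gave 26.4, 45.2 and 38.7 in ERaKO arrays, against 26.5, 13.6 and 42.6 in control arrays. In these signals the groups overlapped fully but for the low value of control replicate 2. On the log2 scale the controls, at 5.37, 4.92 and 6.03, lay on both sides of the ERaKO values of 5.42, 6.01 and 5.51. The difference was 0.21 ± 0.30 (SE; 95% interval -0.49 to 0.90, limma adjusted p = 0.844), and it ran from -0.05 without control replicate 2 to 0.50 without control replicate 3. The second probe set of Lgr5, 1444519_at, stayed under 16 on every array, from 1.1 to 7.8 in ERaKO and from 4.6 to 5.4 in control arrays.

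Lgr6, a receptor described in hair follicle stem cells and in osteoprogenitors of mice, had both probe sets above the filter, and they differed in what they showed. With 1436218_at the signals were 79.9, 83.4 and 80.2 in ERaKO arrays, against 43.5, 62.1 and 55.5 in control arrays. The deposited signals did not overlap. After quantile normalisation the levels were 6.61, 6.71 and 6.29 in ERaKO and 5.84, 6.39 and 6.33 in control arrays, and they overlapped at ERaKO replicate 3, the array with the highest median signal. The difference was 0.35 ± 0.19 (SE; 95% interval -0.09 to 0.79, limma adjusted p = 0.562), and 0.18 without control replicate 1. With 1427028_at the signals were 51.9, 62.9 and 97.5 in ERaKO arrays, against 62.7, 45.3 and 75.9 in control arrays, and the difference was 0.02 ± 0.20 (SE), with either sign when 1 array was left out (-0.12 to 0.20). Both probe sets averaged to 0.18 (adjusted p = 0.708).

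Of the ligases, Znrf3 was measured above the filter and Rnf43 was not. Znrf3 probe set 1435608_at gave 124.5, 102.5 and 168.4 in ERaKO arrays, against 107.9, 129.9 and 78.1 in control arrays. The highest and the lowest signal belonged to different genotypes, but the groups overlapped. The difference was 0.14 ± 0.17 (SE; 95% interval -0.25 to 0.53, limma adjusted p = 0.798), and it ran from 0.02 without control replicate 3 to 0.31 without control replicate 2. The second probe set of Znrf3, 1437646_at, was dim and uneven, with 16.4, 3.1 and 22.8 in ERaKO arrays, against 2.5, 2.2 and 16.7 in control arrays. Its difference was 0.27 ± 0.32 (SE), and it ran from 0.11 without control replicate 1 to 0.59 without control replicate 3.

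Rnf43 gave 0.9, 1.2 and 0.8 in ERaKO arrays, against 6.3, 0.6 and 6.6 in control arrays. All ERaKO signals and that of control replicate 2 were near the bottom of the scale, and control replicates 1 and 3 were a few units higher. The difference was -0.28 ± 0.14 (SE; 95% interval -0.60 to 0.05) on log2(signal + 16). It ran from -0.43 without control replicate 2 to -0.17 without control replicate 3, and a ratio of such signals has no meaning as a fold. No ligase probe set separated the genotypes.

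Over all 14 probe sets, 9 differences were above 0 and 5 below. On 3 of them all ERaKO values lay above all control values, against 7.29% of all single-gene probe sets. On 0 of them all ERaKO values lay below, against 7.05% of all. Of the 6 members with 2 probe sets, Rspo2 and Lgr5 had them on opposite sides of 0. Only for Rspo3 did both probe sets separate the genotypes, and the second of these was dim. The share of all genes with 2 probe sets for which both separate was not counted.

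The other genes of the pathway were read from 5 lists of 67 genes, of which 46 were tested and none was called with all 6 arrays (0% of all tested genes). Across all tested genes the median difference was -0.01, and 48.3% lay above 0. In 9.23% of them all ERaKO values lay above all control values, and in 7.76% below. The lists were chosen with earlier results of these data known, so their counts are not a test of the pathway. Among the Wnt receptors that the ligases clear, 8 of 12 Frizzled and Lrp genes lay above 0 and 4 below, with a median of 0.14. Fzd1, a Frizzled receptor, had signals of 743.9, 608.8 and 756.8 in ERaKO arrays, against 405.1, 427.5 and 428.5 in control arrays. It differed by 0.56 ± 0.13, Fzd2 by 0.56 ± 0.16 and the co-receptor gene Lrp6 by 0.38 ± 0.13 (SE), all with ERaKO values above all control values. Fzd3 differed by -0.32 ± 0.12 (SE) in the opposite direction, and its other 5 probe sets ran from -0.06 to 0.30. All other probe sets of Fzd1, Fzd2 and Lrp6 were above 0, at 0.12 to 0.51. The limma adjusted p-values of these 4 genes were between 0.274 and 0.425.

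Of 19 Wnt ligand genes only 6 were tested, with 5 above and 1 below 0 and a median of 0.05. With 1 array left out that median ran from -0.021 (without ERaKO replicate 1) to 0.17 (without ERaKO replicate 3), so its sign is not settled. Wnt9a, a ligand known from joint formation in the mouse, had log2 levels of 7.49, 7.35 and 7.36 in ERaKO and 6.63, 6.61 and 6.38 in control arrays. Its groups lay far apart relative to their spread, with a difference of 0.86 ± 0.12 (SE, limma adjusted p = 0.133), while its dim second probe set was at -0.05. With control replicate 2 left out Wnt9a was called (adjusted p = 0.0182), as it was with the deposited scaling (1.00, adjusted p = 0.0431). Wnt4, Wnt11 and Wnt5b differed by 0.33 ± 0.24, 0.05 ± 0.17 and 0.04 ± 0.14 (SE). A second probe set of Wnt4, also above the filter, lay at -0.07 ± 0.19 (SE), on the other side of 0.

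Among 6 tested partners of R-spondins and Lgr receptors, 4 lay above and 2 below 0, with a median of 0.04, which ran from 0.0019 without ERaKO replicate 3 to 0.098 without control replicate 3. Tnfsf11, which encodes the Lgr4 ligand RANKL, had signals of 266.4, 202.3 and 336.2 in ERaKO arrays, against 147.7, 139.9 and 109.0 in control arrays, with no overlap. Tnfsf11 differed by 0.78 ± 0.13 (SE, limma adjusted p = 0.183) and was called once control replicate 2 was left out (0.84, adjusted p = 0.0297). The difference on the dimmer probe set of Tnfsf11 was 0.36 ± 0.23 (SE). Bmpr1a, a BMP receptor that R-spondins bring to Znrf3 in the frog Xenopus, differed by 0.13 ± 0.10, the Lgr4 scaffold Iqgap1 by -0.11 ± 0.11 and the ligase adaptor Dvl1 by 0.03 ± 0.08 (SE). The probe sets of Bmpr1a and of Iqgap1 lay on both sides of 0, and the second probe set of Dvl1 was at 0.30 ± 0.12 (SE).

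Heparan sulfate proteoglycans, which bind R-spondins at the cell surface, were above 0 for 5 and below for 3 of 8 core proteins, with a median of 0.07, which ran from 0.015 without control replicate 3 to 0.12 without control replicate 2. Sdc1, syndecan 1, had log2 levels of 9.29, 9.09 and 9.35 in ERaKO and 8.63, 8.74 and 8.63 in control arrays, with no overlap. It differed by 0.58 ± 0.10 (SE, limma adjusted p = 0.183), its other 3 probe sets were at 0.32 to 0.37, and leaving out control replicate 2 brought a call (0.62, adjusted p = 0.0367). The glypicans Gpc3 and Gpc1 differed by 0.59 ± 0.19 and 0.30 ± 0.10, and Sdc4 by -0.33 ± 0.31 (SE). The second probe set of Sdc4 was at -0.69 ± 0.34 (SE).

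Of 14 tested Wnt feedback and target genes, 11 lay above 0 and 3 below, with a median of 0.16. With 1 array left out that median ran from 0.08 (without ERaKO replicate 1) to 0.22 (without ERaKO replicate 3). It was 0.09 without control replicate 3. Axin2, the feedback gene most often used to read Wnt and β-catenin activity, had signals of 81.0, 49.5 and 67.7 in ERaKO arrays, against 54.4, 65.4 and 36.4 in control arrays. The groups overlapped, and the difference was 0.15 ± 0.21 (SE; 95% interval -0.34 to 0.64). Dkk1, a secreted antagonist that binds Lrp6, had signals of 558.0, 611.5 and 678.7 in ERaKO arrays, against 1274.5, 629.9 and 905.8 in control arrays. It differed by -0.70 ± 0.20 (SE, limma adjusted p = 0.349). With the lowest control, replicate 2, left out it was called (-0.94, adjusted p = 0.0136), a setting in which 1.88% of tested genes were called as lower. Ccnd1, Tnfrsf19 and Nkd1 differed by 0.34 ± 0.13, 0.42 ± 0.17 and 0.44 ± 0.29 (SE). Tnfrsf19 had a further probe set at -0.19.

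**Figure D4:**
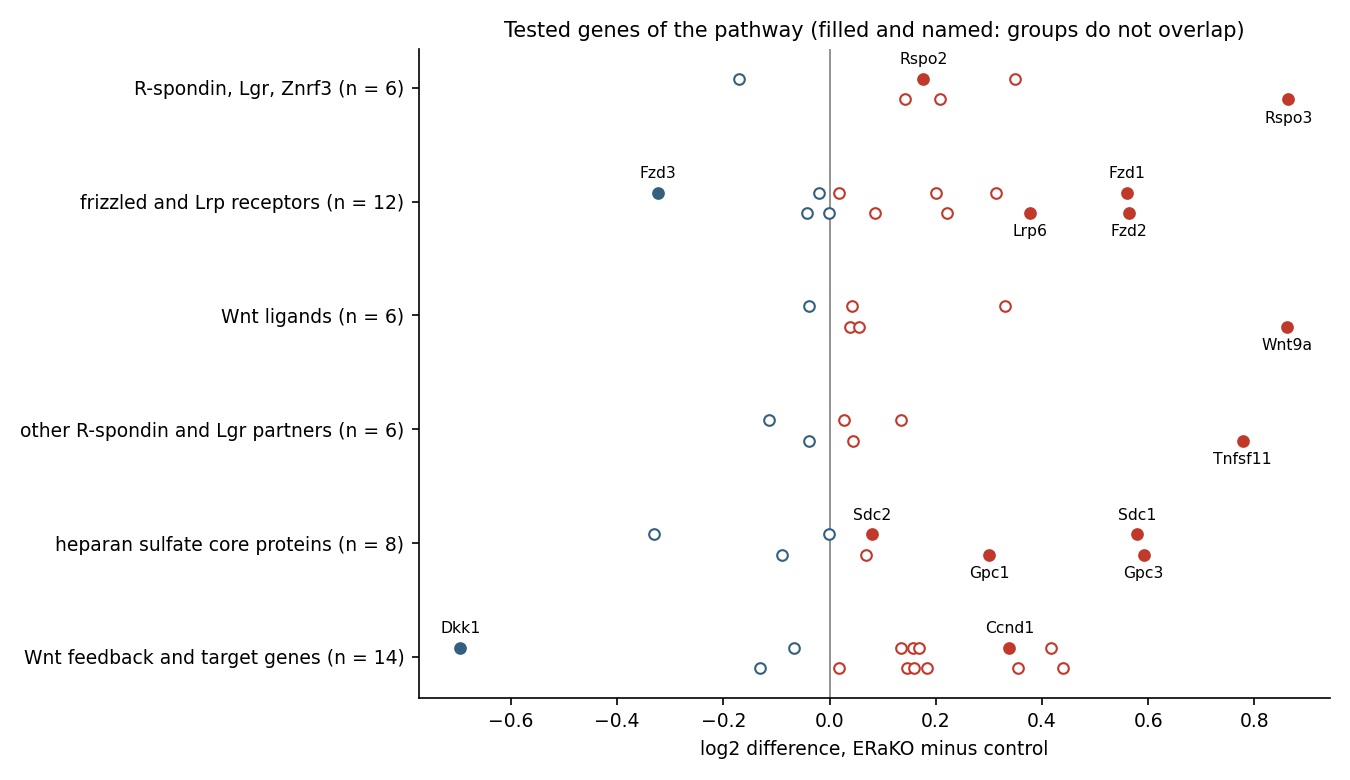
Log2 difference, ERaKO minus control (x axis), of every tested member and every tested gene of 5 pathway lists, with 1 point a gene, red above 0 and blue below. Filled and named points have groups that do not overlap. Rspo3, Wnt9a and Tnfsf11 lie farthest to the right, between 0.78 and 0.86, and Dkk1 lies farthest to the left at -0.70.

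The tested genes whose levels over the 6 arrays were nearest to those of Rspo3, by the root mean square difference of centred log2 levels, were Bcl11b at 0.09, Col12a1 and Foxp2 at 0.11, and S100b and Crispld1 at 0.12. Each had all ERaKO values above all control values, with differences between 0.77 and 0.89 and limma adjusted p-values between 0.133 and 0.291. Separation, differences near that of Rspo3 and like levels within the controls follow largely from how these genes were chosen. Bcl11b and Foxp2 encode transcription factors and Col12a1 a fibril-associated collagen. In control replicates 1, 2 and 3 Foxp2 had log2 levels of 8.05, 8.80 and 8.06, highest in control replicate 2 as Rspo3 was.

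Of 9 marker lists, only the cartilage one separated the genotypes both in summed signal and in mean centred log2 level. Osteoblast markers separated in summed signal only, with 38615.7 to 40808.6 in ERaKO and 34980.3 to 38382.8 in control arrays. All sums are of deposited signals without normalisation, a scaling with which the median difference of all tested genes was 0.14. Of 7 tested osteoblast markers 3 lay above 0 (median -0.05). Cartilage cell markers lay above 0 for 12 of 13 tested genes (median 1.42). Their 14 measured genes summed to signals of 10700.9, 11566.8 and 8666.9 in ERaKO arrays, against 7868.0, 5504.6 and 4787.7 in control arrays, without overlap. None of these was at 0 in any array. By centred log2 level the cartilage list was lowest in control replicate 2 (-0.99), against -0.14 and -0.65 in control replicates 1 and 3. By summed signal it was lowest in control replicate 3, so the order of the controls depends on the measure. Pericyte and smooth muscle markers lay below 0 for 10 of 11 (median -0.46). Their sums were 15531.8 to 18892.5 in ERaKO and 16055.0 to 25598.4 in control arrays. Suture and adventitial fibroblast markers lay above 0 for 2 of 7 (median -0.40), with sums of 1916.4 to 2926.9 in ERaKO and 1836.8 to 4485.2 in control arrays. Of 6 tested meningeal markers, 4 lay above 0, with a median of 0.54. Sums over the 9 measured meningeal genes were 838.4 to 1192.3 in ERaKO and 553.7 to 1292.7 in control arrays. Osteocyte markers summed to 12627.4 to 16721.3 in ERaKO and 12585.1 to 16346.7 in control arrays, with 4 of 11 above 0 (median -0.09). The part of these cells in the Rspo3 difference was not tested. Skeletal muscle markers, lowest in control replicate 2 by far, did not separate the genotypes.

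**Figure D5:**
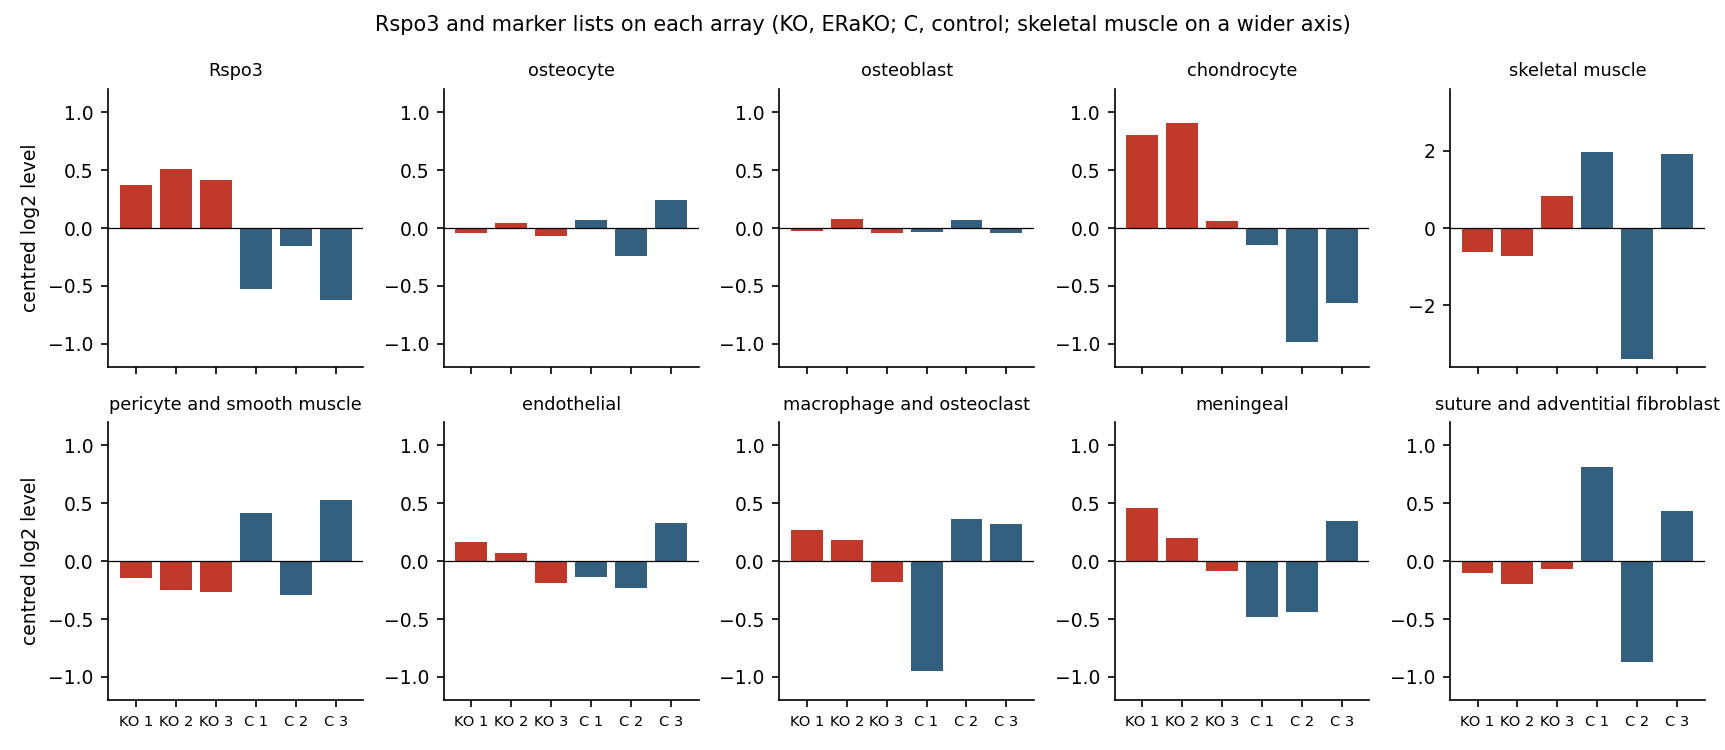
Level of Rspo3 and mean level of 9 marker lists on each array (y axis, log2 after centring each gene over the 6 arrays), with ERaKO (KO, red) left and control (C, blue) right. Rspo3 and the cartilage list separate the genotypes, and skeletal muscle spans -3.38 (control replicate 2) to 1.97 (control replicate 1). Among the controls the cartilage list is lowest in replicate 2 by this mean, but in replicate 3 by summed signal.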

How the data were processed

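The authors deposited 1 signal intensity per probe set and array on a linear scale. The submitters' processing notes name GCOS. Not given in the sources used here: background correction, probe summary and scaling. Of 45101 probe sets, 64 controls were left out. The platform annotation gave 1 gene for 34945, several for 932, and 9160 are unnamed here. Symbols were updated through RefSeq for 34741. From these values log2(signal + 16) was computed and quantile normalised. The brightest probe set stood for each of 18193 genes. The genotype effect was fitted with limma 3.58.1 under R 4.3.3 (lmFit, eBayes with trend, 2-sided, Benjamini-Hochberg over 10916 genes, 0.05), with no covariate. Further probe sets come from the same model over all single-gene probe sets. Detection calls were not used here, and the number of arrays limits the precision. On simulated data with 10916 genes, 33.5% of genes changed 1.5-fold, 70.3% changed 2-fold and 93.6% changed 4-fold were recovered, with 6.1 false calls a run. The simulation changed 200 genes in each of 20 runs and drew normal noise independently for each gene and array. It holds no deviation that genes share on 1 array, as in control replicate 2, so it does not give the recovery for these arrays. Members, lists and markers were chosen with earlier results of these data known. Beside all members, the text names the 4 genes of each list with the smallest p, Esr1, Rspo4, Tnfsf11, Axin2, and the 5 genes nearest to Rspo3. Fgf23 was named after its values were seen. Alternatives covered scaling, pseudocount, level filter, probe sets, array weights, replicate numbers as a block, and each array left out.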

Additional observations from a re-analysis of the deposited data

How the results depend on the processing

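No member was called under any of the 10 alternatives that kept all 6 arrays, and with the lowest 60% of genes left out only Lgr4 and Znrf3 of the members were tested. With 1 array left out, the count of members called ran from 0 to 1, that of all tested genes from 0 to 291 and that of pathway list genes from 0 to 4. The counts above 0 all came without control replicate 2, where Rspo3, Wnt9a, Tnfsf11 and Sdc1 were called as higher and Dkk1 as lower. The deposited scaling called 30 genes, 1 of them in a pathway list (Wnt9a), and a common median called 1 gene. The median of all tested genes was 0.14 with the deposited scaling, against which Rspo3 stood at 1.00, Lgr4 at -0.01 and the medians of the 5 pathway lists at 0.18 to 0.30. Signs turned for Rspo2 with the mean of its probe sets (-0.11), for Lgr5 with 1 array left out (-0.052 to 0.50, and -0.13 to 0.057 for its second probe set), and for the second probe set of Lgr6 with array weights (-0.0085) or with 1 array left out (-0.12 to 0.20), as well as for the median of the Wnt ligands without ERaKO replicate 1 (-0.021). The cause was not tested. With replicate numbers as a block, 0 members and 0 of all tested genes were called and Rspo3 differed by 0.86 (adjusted p = 0.488). Deviations of genes from their group means correlated between same-numbered arrays with r of -0.38, 0.10 and -0.04. ERaKO replicate 3 and control replicate 1 gave 0.42. Deviations within a group of 3 arrays sum to 0, so these values cannot decide whether the numbers pair the arrays. Signals near 0 limit what Rspo1, Rnf43 and the dim second probe sets can show.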
